A study of Mus musculus with 6 samples.

Results

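The G1/S and DNA replication genes are a set of 50 genes that carry a cell from the end of G1 through the copying of its DNA. They were listed by name, from the cyclins and kinases of G1 to the enzymes of the replication fork, and each was read from the array row that carries its symbol alone, taking the row with the highest mean where a gene had more than 1. Of the 50, 49 were measured in this way among 19938 genes in all. Cdkn1a, which encodes the p21 inhibitor, lay on a row shared with another symbol and is given no value.

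The arrays compare cells differentiated from mouse embryonic stem cells for 14 days and sorted on the fluorescence of GFP, a green fluorescent protein placed at the Nkx2-1 locus by knock-in. Nkx2-1 encodes a transcription factor of lung, thyroid and ventral forebrain. There were 3 Nkx2-1 high samples (GFP positive, genotype label Nkx2-1GFP+) and 3 Nkx2-1 low samples (GFP negative, genotype label Nkx2-1GFP-). All 6 came from reporter cells of the W4/129S6 background, with 3 biological replicates, and the labels name the cell type only as ES cells. Both fractions carry the reporter allele and differ by its level, so each can hold several cell types.

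Entry into S phase begins when cyclin D with Cdk4 or Cdk6, and then cyclin E with Cdk2, phosphorylate the retinoblastoma proteins and release E2F transcription factors. E2F factors switch on many of the genes whose products load the Mcm helicase at origins, fire those origins, copy the DNA and make deoxynucleotides. Inhibitors of the Cip/Kip and Ink4 families hold the kinases in check, and progenitor cells that leave the cycle commonly lower many of the replication genes.

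Nkx2-1 stood at log2 expression values of 7.62, 7.77 and 7.77 in Nkx2-1 high, against 5.42, 5.23 and 5.34 in Nkx2-1 low. It was 5.25-fold higher in Nkx2-1 high, as the sort requires. A log2 value of 4.30, the 95th percentile of 1210 rows of olfactory and vomeronasal receptors, served as the background level, and a gene whose group means both lay at or under it is called not above background and given no fold. The thyroid factor gene Pax8 and the foregut gene Hhex were 1.51-fold and 1.98-fold higher in Nkx2-1 high. Sox17, Sftpc, Scgb1a1, Tg and Tshr, markers of endoderm and of mature lung and thyroid, were not above background. Of the same lists, Sftpb (means of 4.76 in Nkx2-1 high and 4.58 in Nkx2-1 low), Foxe1 (6.70 in Nkx2-1 high and 6.54 in Nkx2-1 low), Foxa1 (5.46 in Nkx2-1 high and 5.87 in Nkx2-1 low) and Foxa2 (5.74 in Nkx2-1 high and 5.78 in Nkx2-1 low) were above background and did not pass. Not above background either were the pluripotency genes Pou5f1, Nanog and Zfp42.

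Genes of the G1/S transition and of DNA replication were lower in Nkx2-1 high more often than they were higher. Of the 49 measured, 10 fell, 1 rose and 38 did not pass, by limma with Benjamini-Hochberg adjustment over all 19938 genes at a threshold of 0.05. The share that fell was 20.4%, where 3.09% of all genes fell, and 4.27% of the 13404 genes above background in at least 1 group. The 20.4% is over all 49 members, of which 3 were not above background, and it counts Gins1, 1 of those 3. The share that rose was 2.04%, where 2.90% of all genes rose. The genes that fell were those of cyclin E1 (Ccne1), the reductase subunit Rrm2, the licensing factor Cdc6, the helicase subunits Mcm2 and Mcm6, Gins1, the sliding clamp Pcna, the polymerase subunits Pola1 and Pole, and Uhrf1. The 1 gene that rose was Cdkn1b, which encodes the cyclin-dependent kinase inhibitor p27.

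The differences were small and mostly in 1 direction. The members' differences, always Nkx2-1 high minus Nkx2-1 low on the log2 scale, ran from -0.70 to 0.35 with a median of -0.18, and the median over all genes was -0.01. Of the 49, 44 lay below 0 (89.8%), where 52.4% of all genes did. In 27 members every Nkx2-1 high sample lay below every Nkx2-1 low sample, and 13.5% of all genes showed that. At an unadjusted p under 0.05, 24 members were lower and 1 was higher, where 10.4% of all genes were lower and 8.57% were higher. In RNA from sorted populations, a smaller share of cells in S phase and less of a transcript per cell cannot be told apart.

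Most of the calls stood close to the threshold. Just inside it were Mcm2 (adjusted p = 0.0420) and Mcm6 (adjusted p = 0.0430), and just outside it Orc2 (adjusted p = 0.0698) and Orc6 (adjusted p = 0.0722). The fit was repeated with 1 sample left out each time (leave-one-out fits). With Nkx2-1 high replicate 1, 2 or 3 left out, the members that fell numbered 3, 2 and 5, and with Nkx2-1 low replicate 1, 2 or 3 left out, 2, 2 and 3. Ccne1 and Rrm2 passed in all 6 of those fits. None of the 11 called members changed sign under the alternative settings run. Those were 16 for each but Gins1, which had 14 because both filters on dim genes left it out. The groups of all 11 did not overlap, so leaving out samples could not turn a sign. The stricter threshold, the filters and the variance models leave the difference as it is. The unchanged signs therefore say little about how firm the calls are.

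**Figure D1:**
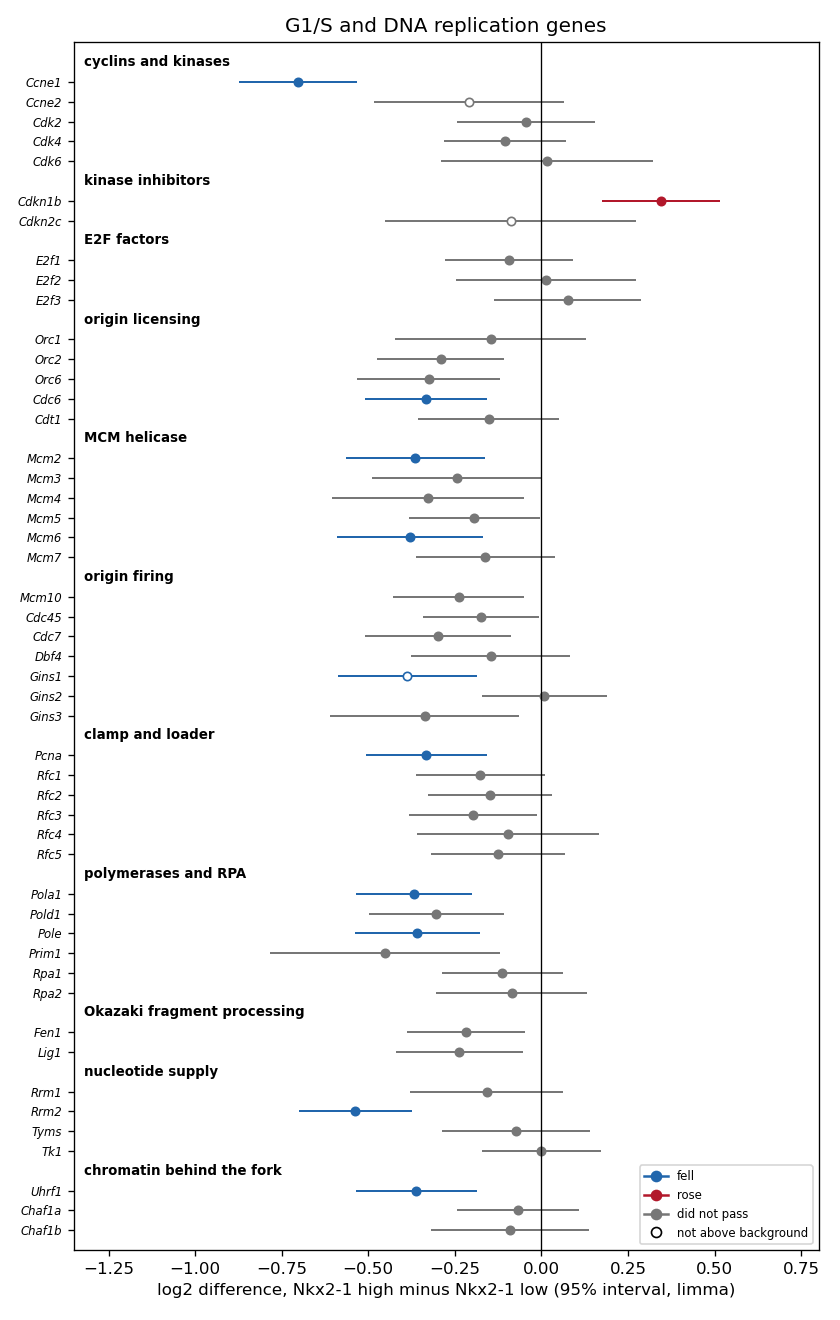
Log2 difference of each of the 49 measured members (x axis, Nkx2-1 high minus Nkx2-1 low) with its 95% interval from limma, grouped by role. Blue marks the 10 that fell, red the 1 that rose, grey those that did not pass, and open circles members not above background; nearly all points lie left of 0, with Ccne1 at -0.70 and Rrm2 at -0.54 the farthest.

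The promoters of several members carry the letters that E2F factors are known to bind, and 7 of them are shown here, those with a match in the same stretch before the start, so that members that fell can be read beside members that did not pass. Promoter windows were found in the RefSeq table of GRCm38.p6 for 43 of the 49 members, and the 250 bases before each listed start were searched on both strands for TTTGGCGC, TTTCGCGC, TTTCCCGC and TTTGCCGC. A match on 1 strand can share its last letters with a match on the other strand. Each stretch below is the strand of the gene, 5′ to 3′, from 200 to 91 bases before the start, in GRCm38.p6, with the matches in capitals. Those of genes that fell are Mcm6 (chr1:128359796-128359905, minus strand), Cdc6 (chr11:98907951-98908060, plus strand), Uhrf1 (chr17:56304113-56304222, plus strand) and Pola1 (chrX:93632246-93632355, minus strand). Those of genes that did not pass are Mcm5 (chr8:75109309-75109418, plus strand), Mcm7 (chr5:138171974-138172083, minus strand) and Cdk2 (chr10:128705142-128705251, minus strand).
Mcm6: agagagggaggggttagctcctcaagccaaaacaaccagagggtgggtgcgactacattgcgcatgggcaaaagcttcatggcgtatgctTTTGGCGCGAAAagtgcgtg
Cdc6: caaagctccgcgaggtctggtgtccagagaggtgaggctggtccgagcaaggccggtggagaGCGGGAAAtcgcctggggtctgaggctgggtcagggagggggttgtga
Uhrf1: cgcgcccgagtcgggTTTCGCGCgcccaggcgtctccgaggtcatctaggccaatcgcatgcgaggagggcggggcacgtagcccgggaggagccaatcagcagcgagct
Pola1: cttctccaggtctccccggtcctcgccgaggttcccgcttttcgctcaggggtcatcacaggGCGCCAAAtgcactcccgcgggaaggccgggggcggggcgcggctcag
Mcm5: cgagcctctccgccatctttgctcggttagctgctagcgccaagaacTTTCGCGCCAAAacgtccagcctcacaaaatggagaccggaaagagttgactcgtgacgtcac
Mcm7: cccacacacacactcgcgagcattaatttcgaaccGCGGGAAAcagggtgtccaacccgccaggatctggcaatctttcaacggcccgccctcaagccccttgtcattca
Cdk2: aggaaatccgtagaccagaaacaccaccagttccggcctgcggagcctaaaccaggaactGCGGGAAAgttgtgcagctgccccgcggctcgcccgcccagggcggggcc

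The stretches of Mcm6 and Mcm5 each hold a pair of overlapping matches, and the others hold 1 each. Such a match was present before 11 of the 43 members with a window (25.6%), where 2.16% of the 27025 genes with a window and 1.86% of all 32851 windows had one. By outcome, 4 of the 8 members that fell and had a window held a match, and 7 of the 34 that did not pass. The 7 were Mcm5, Mcm7 and Cdk2, shown above, and E2f3, Gins3, Orc1 and Rfc3, whose matches began 11, 41, 27 and 10 bases before the start, outside the stretch shown. Of 20 genes of G2 and mitosis with a window, 1 held a match. Outside the members, 5 of 28 further replication genes with a window held one (17.9%). So did 2 of 14 genes of the S phase checkpoint and fork repair (14.3%) and 0 of 18 further genes of nucleotide supply. The windows of Ccne1, Rrm2, Pcna, Mcm2 and Cdkn1b held none of these letters, and Gins1 and Pole had no window. Over the same windows, the CCAAT box, searched as CCAAT, was present before 60.5% of the members and 37.5% of all genes. It was more frequent still before the G2 and mitosis genes, at 85.0%. The CHR element of late cell-cycle genes, searched as TTTGAA, was present before 16.3% of the members, 18.3% of all genes and 35% of the G2 and mitosis genes.

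Among the cyclins and kinases of G1, 1 of 5 passed. Ccne1, whose cyclin E1 activates Cdk2 at the G1/S boundary, stood at 6.56, 6.56 and 6.48 in Nkx2-1 high, against 7.20, 7.21 and 7.30 in Nkx2-1 low. All Nkx2-1 high samples lay below all Nkx2-1 low samples, by more than the spread within either group. Ccne1 was lower by 1.63-fold (log2 difference -0.70 ± 0.08, SE, adjusted p = 0.000631), the largest difference of the set, and passed under all 16 alternative settings.

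The kinases Cdk4, Cdk6 and Cdk2 and the other cyclin E gene did not pass. Cdk4, a kinase that pairs with D cyclins, stood at 10.41, 10.38 and 10.44 in Nkx2-1 high, against 10.61, 10.49 and 10.45 in Nkx2-1 low, with the groups adjoining but not overlapping (-0.10 ± 0.08, adjusted p = 0.535). Cdk6, the related kinase, stood at 7.65, 7.52 and 7.84 in Nkx2-1 high, against 7.46, 7.56 and 7.96 in Nkx2-1 low. In both groups the sample numbered 3 was the highest for Cdk6, and the groups overlapped (0.02 ± 0.14). Cdk2, the partner of cyclin E, differed by -0.04 ± 0.09 with a 95% interval from -0.24 to 0.15. Ccne2, the gene of cyclin E2, read 3.35, 3.14 and 2.87 in Nkx2-1 high, against 3.45, 3.30 and 3.24 in Nkx2-1 low. It was not above background in either group.

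Of the kinase inhibitors, Cdkn1b rose. It stood at 8.24, 8.21 and 8.18 in Nkx2-1 high, against 7.92, 7.80 and 7.88 in Nkx2-1 low. The Nkx2-1 high samples lay closely together above all of Nkx2-1 low, a 1.27-fold difference (0.35 ± 0.07, adjusted p = 0.0248). The call was lost in 4 of 6 leave-one-out fits, which left out Nkx2-1 high replicate 1 or 2 or Nkx2-1 low replicate 2 or 3 (adjusted p up to 0.101). Another row for Cdkn1b, with means of 4.19 in Nkx2-1 high and 4.08 in Nkx2-1 low, was not above background, and with the mean of both rows the gene did not pass (0.22, adjusted p = 0.136). Cdkn2c, the gene of the Ink4 inhibitor p18, read 3.42, 3.84 and 4.04 in Nkx2-1 high, against 3.89, 4.06 and 3.61 in Nkx2-1 low. It was not above background, and the groups overlapped.

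The E2F genes themselves did not pass. E2f1, an activator of replication genes, stood at 6.52, 6.54 and 6.61 in Nkx2-1 high, against 6.66, 6.55 and 6.74 in Nkx2-1 low (-0.09 ± 0.08, 95% interval from -0.27 to 0.09). The groups overlapped. E2f2 stood at 5.17, 5.22 and 5.35 in Nkx2-1 high, against 4.98, 5.38 and 5.35 in Nkx2-1 low (0.01 ± 0.11). E2f3 stood at 6.89, 6.89 and 6.65 in Nkx2-1 high, against 6.83, 6.65 and 6.71 in Nkx2-1 low (0.08 ± 0.09), and its rows disagreed in sign. The other E2f3 row averaged 6.42 in Nkx2-1 high and 6.64 in Nkx2-1 low, a difference of -0.22.

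**Figure D2:**
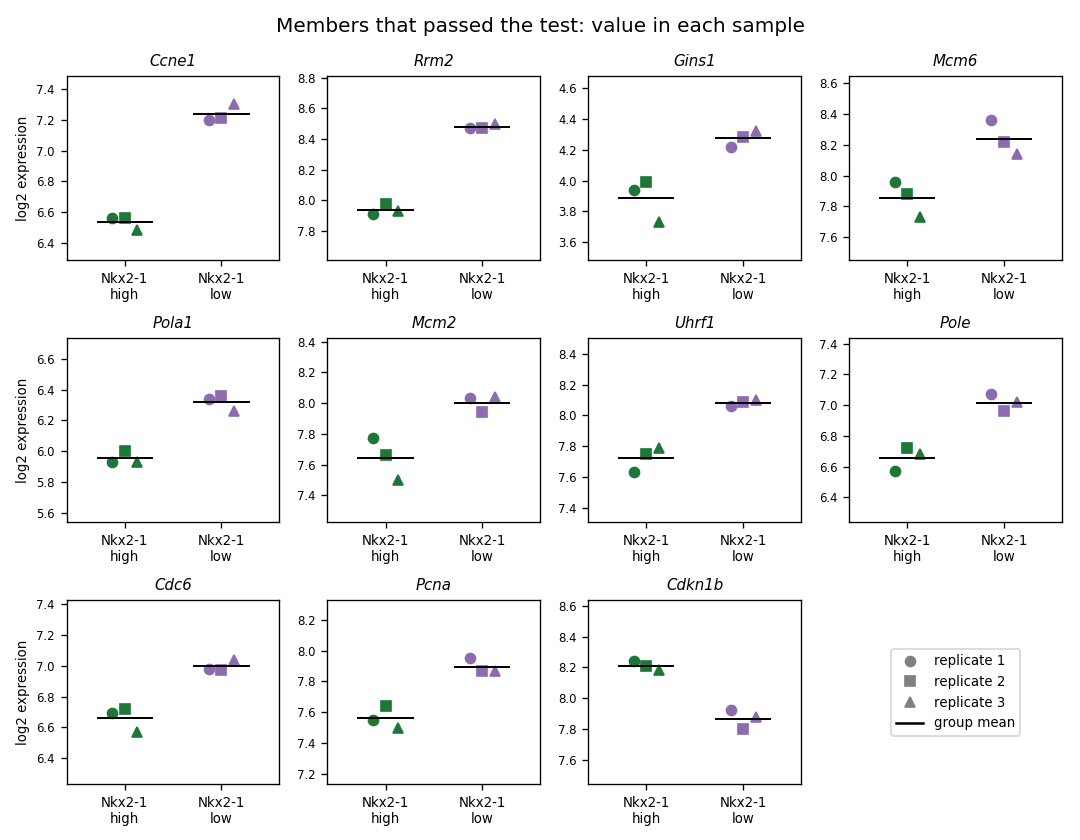
Log2 expression (y axis) of the 11 members that passed, in each Nkx2-1 high sample (left, green) and Nkx2-1 low sample (right, purple). Marker shape gives the replicate number, the line is the group mean, and every panel spans the same range in log2 units; the groups do not overlap in any panel, and Nkx2-1 high is above Nkx2-1 low for Cdkn1b alone.

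Origin licensing loads the Mcm helicase on DNA in G1, and all 5 members of this group lay below 0. Cdc6, which with Cdt1 brings the helicase to the origin recognition complex, fell. It stood at 6.69, 6.72 and 6.57 in Nkx2-1 high, against 6.98, 6.97 and 7.04 in Nkx2-1 low, and the groups were well apart. The difference was 1.26-fold (-0.33 ± 0.08, adjusted p = 0.0350), and the call was lost in each of the 6 leave-one-out fits (adjusted p up to 0.112). Among the origin recognition subunits, Orc2 (-0.29 ± 0.08) and Orc6 (-0.33 ± 0.09) were lower without overlap but did not pass. Orc1 differed by -0.15 ± 0.12 and Cdt1 by -0.15 ± 0.09, with overlapping groups.

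The 6 subunits of the Mcm ring, which unwinds the DNA ahead of the fork, were all lower by value, and 2 of them fell. Mcm2 stood at 7.77, 7.66 and 7.50 in Nkx2-1 high, against 8.03, 7.94 and 8.04 in Nkx2-1 low (1.29-fold lower, -0.36 ± 0.09). Mcm6 stood at 7.96, 7.88 and 7.73 in Nkx2-1 high, against 8.36, 8.22 and 8.14 in Nkx2-1 low (1.30-fold lower, -0.38 ± 0.09). Neither gene's groups overlapped, and for Mcm6 the gap between them was only a little wider than the steps within each group. Mcm2 lost its call in 5 of 6 leave-one-out fits, all but the one without Nkx2-1 high replicate 1 (adjusted p up to 0.122), and Mcm6 in all 6 (adjusted p up to 0.128). With arrays centred on their medians neither passed (adjusted p = 0.0569 for Mcm2 and 0.0608 for Mcm6).

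Mcm4, of the same ring, stood at 7.25, 7.20 and 6.84 in Nkx2-1 high, against 7.57, 7.43 and 7.27 in Nkx2-1 low (-0.33 ± 0.12, adjusted p = 0.174). The lowest Nkx2-1 low sample was barely above the highest Nkx2-1 high sample. Mcm3 differed by -0.24 ± 0.11, Mcm5 by -0.19 ± 0.08 and Mcm7 by -0.16 ± 0.09, and of these the groups overlapped for Mcm7. In 5 of the 6 subunits Nkx2-1 high replicate 3 was the lowest of its group, and in 4 of the 6 Nkx2-1 low replicate 1 was the highest of its group.

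Origin firing turns the loaded ring into the active helicase with Cdc45 and the GINS complex, after phosphorylation by Cdc7 with Dbf4. Of 7 members 6 lay below 0 and 1 fell. Gins1, a GINS subunit, read 3.94, 3.99 and 3.73 in Nkx2-1 high, against 4.22, 4.28 and 4.32 in Nkx2-1 low (adjusted p = 0.0333). Both of its group means lay under the background level, so it is given no fold, and the call was lost in each of the 6 leave-one-out fits (adjusted p up to 0.103). Gins3 stood at 5.33, 5.83 and 5.60 in Nkx2-1 high, against 6.01, 5.91 and 5.85 in Nkx2-1 low (-0.34 ± 0.12, adjusted p = 0.157). The Nkx2-1 high samples were widely spread, and the highest of them nearly reached the lowest of Nkx2-1 low. Gins2, of the same complex, differed by 0.01 ± 0.08, with a 95% interval from -0.17 to 0.19. Cdc7 (-0.30 ± 0.09), Mcm10 (-0.24 ± 0.08) and Cdc45 (-0.17 ± 0.07) were lower without overlap and did not pass, and Dbf4 differed by -0.15 ± 0.10.

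The clamp and its loader were lower by value in all 6 members. Pcna, which encodes the ring that holds polymerases on DNA, stood at 7.55, 7.64 and 7.50 in Nkx2-1 high, against 7.95, 7.87 and 7.87 in Nkx2-1 low. The groups were clearly apart, and Pcna fell 1.26-fold (-0.33 ± 0.08, adjusted p = 0.0339), a call lost in each of the 6 leave-one-out fits (adjusted p up to 0.101). Another row for Pcna gave nearly the same values, with means of 7.55 in Nkx2-1 high and 7.89 in Nkx2-1 low. Whether either row also reads a related sequence such as a pseudogene was not checked, so the rows are not counted as independent measurements. The loader genes did not pass. Rfc1 differed by -0.18 ± 0.08, Rfc2 by -0.15 ± 0.08, Rfc3 by -0.20 ± 0.08, Rfc4 by -0.10 ± 0.12 and Rfc5 by -0.13 ± 0.09. The groups did not overlap for Rfc1 and Rfc3.

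Of the polymerases and the single-strand binding protein RPA, 2 of 6 members fell. Pola1, the catalytic subunit of the polymerase that starts each strand with primase, stood at 5.93, 6.0 and 5.93 in Nkx2-1 high, against 6.34, 6.36 and 6.26 in Nkx2-1 low (1.29-fold lower, -0.37 ± 0.07, adjusted p = 0.0180). Pole, the catalytic subunit of the leading-strand polymerase, stood at 6.57, 6.72 and 6.68 in Nkx2-1 high, against 7.07, 6.96 and 7.02 in Nkx2-1 low (1.28-fold lower, -0.36 ± 0.08, adjusted p = 0.0274). For Pola1 the samples of each group lay close together and far from the other group. For Pole the groups did not overlap either, but Nkx2-1 high was more spread (SD 0.08, against 0.04 for Pola1). Pola1 lost the call in 4 of 6 leave-one-out fits, those without replicate 1 or 2 of either group (adjusted p up to 0.0741), and Pole in all 6 (adjusted p up to 0.0990).

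Prim1, the primase that lays down the RNA primers, had the largest difference among the members that did not pass. It stood at 6.85, 6.83 and 6.36 in Nkx2-1 high, against 7.37, 6.99 and 7.04 in Nkx2-1 low (-0.45 ± 0.15, adjusted p = 0.120). Nkx2-1 high replicate 3 lay well below the rest of its group, and Nkx2-1 low replicate 1 well above the rest of its own. Pold1, the catalytic subunit of the lagging-strand polymerase, differed by -0.30 ± 0.09 (adjusted p = 0.0752) without overlap. Rpa1 differed by -0.11 ± 0.08, without overlap, and Rpa2 by -0.09 ± 0.10. Of the enzymes that finish Okazaki fragments, the flap nuclease gene Fen1 (-0.22 ± 0.07) and the ligase gene Lig1 (-0.24 ± 0.08) were lower without overlap and did not pass.

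Among the genes that supply deoxynucleotides, Rrm2 alone fell of 4. Rrm2, the S-phase subunit of ribonucleotide reductase, stood at 7.91, 7.98 and 7.93 in Nkx2-1 high, against 8.47, 8.47 and 8.50 in Nkx2-1 low. Within each group the samples were nearly level, and the groups were far apart, 1.45-fold (-0.54 ± 0.07, adjusted p = 0.00229). Rrm2 passed under all 16 alternative settings. Rrm1, the large subunit of the same enzyme, differed by -0.16 ± 0.10 and the thymidylate synthase gene Tyms by -0.07 ± 0.09. Tk1, the S-phase thymidine kinase, averaged 7.11 ± 0.06 in Nkx2-1 high and 7.11 ± 0.05 in Nkx2-1 low (SD, n = 3 each). Its other row differed by -0.17, with means of 6.21 in Nkx2-1 high and 6.38 in Nkx2-1 low, and here too it was not checked whether a row reads a related sequence.

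Of the genes that rebuild chromatin behind the fork, Uhrf1 fell. Its product reads hemimethylated DNA and brings in the maintenance methyltransferase. Uhrf1 stood at 7.63, 7.75 and 7.79 in Nkx2-1 high, against 8.06, 8.09 and 8.10 in Nkx2-1 low, with Nkx2-1 low tightly grouped above (1.28-fold, -0.36 ± 0.08, adjusted p = 0.0241). The call was lost in 5 of 6 leave-one-out fits, all but that without Nkx2-1 high replicate 3 (adjusted p up to 0.0893). The histone chaperone genes Chaf1a (-0.07 ± 0.08) and Chaf1b (-0.09 ± 0.10) overlapped between groups.

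Samples differed within groups as well as between them. Each gene was centred on its mean over the 6 samples, and the median of the members was taken in each sample. It was -0.06, -0.07 and -0.15 in Nkx2-1 high replicates 1, 2 and 3, against 0.14, 0.10 and 0.09 in Nkx2-1 low. The medians over all genes lay between -0.01 and 0.01 in Nkx2-1 high and between -0.02 and 0.01 in Nkx2-1 low. Nkx2-1 high replicate 3 was the lowest of its group in 30 of the 49 members, and Nkx2-1 low replicate 1 the highest of its group in 22. Nkx2-1 high replicate 1 was the highest of its group in 22, and Nkx2-1 low replicate 3 the lowest of its group in 22. The same counts over all genes were not made. Without both samples numbered 3 the members' median difference was -0.18, as with all samples, while 2 members fell, Ccne1 and Rrm2.

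**Figure D3:**
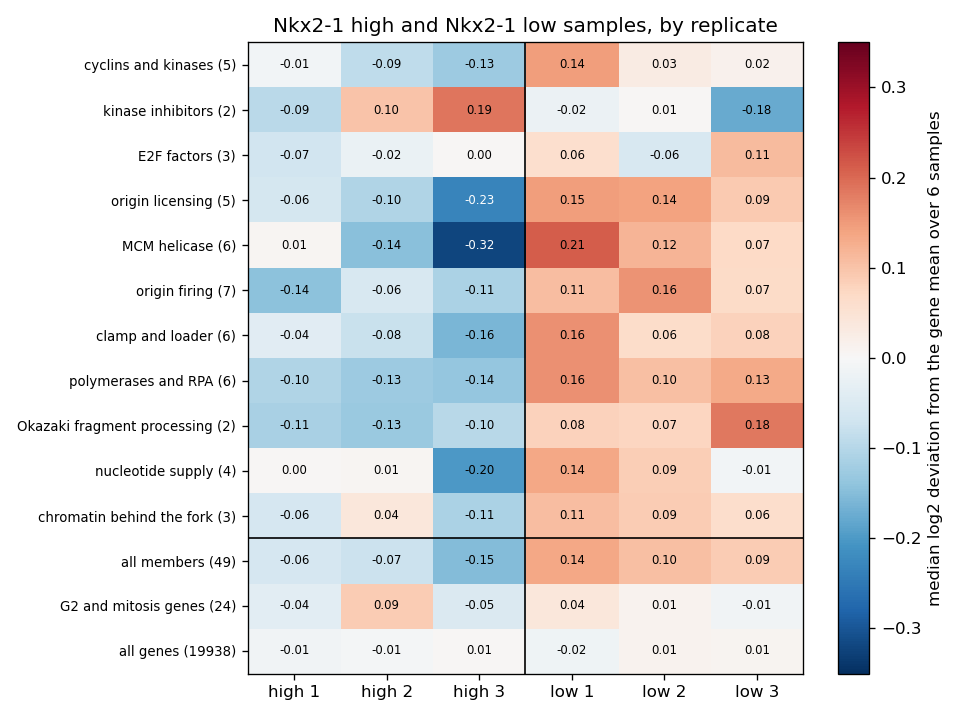
Median deviation of each role's members from their gene means over the 6 samples (log2 units, color and printed value), for Nkx2-1 high replicates (left) and Nkx2-1 low replicates (right), with all members, the G2 and mitosis genes and all genes at the bottom. The medians of all members lie from -0.15 to -0.06 in Nkx2-1 high and from 0.09 to 0.14 in Nkx2-1 low, and the Mcm ring has the lowest value, in Nkx2-1 high replicate 3.

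Further genes of replication, from a list that holds no member, were also mostly lower by value. Of 36 measured, 6 fell (16.7%) and 0 rose, where 3.09% of all genes fell and 2.90% rose. The median difference was -0.18. At an unadjusted p under 0.05, 16 were lower and 0 higher, where 10.4% of all genes were lower and 8.57% higher. The polymerase epsilon subunit gene Pole2 fell 1.50-fold (-0.59 ± 0.08, adjusted p = 0.00300). It stood at 4.38, 4.45 and 4.54 in Nkx2-1 high, against 5.01, 5.14 and 4.98 in Nkx2-1 low, and passed in all 6 leave-one-out fits. Wdhd1, a fork scaffold gene (-0.36 ± 0.08), the helicase gene Mcm8 (-0.35 ± 0.08), Topbp1, needed to fire origins (-0.32 ± 0.07), the fork protection gene Timeless (-0.32 ± 0.08) and the maintenance methyltransferase gene Dnmt1 (-0.30 ± 0.07) fell as well. Each of these 5 lost the call in at least 5 of 6 leave-one-out fits.

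Further genes of nucleotide supply included larger falls. Of 18 measured, 6 fell (33.3%) and 1 rose (5.56%), where 3.09% of all genes fell and 2.90% rose. The median difference was -0.27. Ctps, the CTP synthase gene, was 1.70-fold lower (-0.77 ± 0.09), and the folate enzyme genes Mthfd2 and Mthfd1 were 1.69-fold and 1.41-fold lower. Cad, which starts pyrimidine synthesis, differed by -0.44 ± 0.09, the purine enzyme gene Gart by -0.34 ± 0.08 and the dUTPase gene Dut by -0.34 ± 0.08. The gene that rose was Samhd1, whose product breaks down deoxynucleotides (0.31 ± 0.08). Ctps and Mthfd2 passed in all 6 leave-one-out fits, and Mthfd1 did not pass without Nkx2-1 high replicate 2 (adjusted p = 0.0585). Cad, Gart, Dut and Samhd1 lost the call in 4 to 6 of them.

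Among genes around the retinoblastoma switch, of 24 measured, 1 fell and 1 rose (4.17% each, near the shares over all genes), with a median difference of -0.13. At an unadjusted p under 0.05, 7 were lower and 1 was higher, where 10.4% of all genes were lower and 8.57% higher. Ccnd3, a D cyclin gene, stood at 7.89, 7.78 and 7.71 in Nkx2-1 high, against 7.41, 7.36 and 7.46 in Nkx2-1 low (0.38 ± 0.08, adjusted p = 0.0219, lost in 4 of 6 leave-one-out fits). Rbl1, the gene of the pocket protein p107, fell (-0.31 ± 0.08, lost in all 6). Among 18 genes of the S phase checkpoint and fork repair 0 passed by limma, with 9 lower and 0 higher at an unadjusted p under 0.05 and a median of -0.18. The kinase gene Chek1 (-0.32 ± 0.13) and the mismatch repair gene Msh6 (-0.31 ± 0.09) had the largest differences there.

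Genes of G2 and mitosis were not called. Of 24 measured, 0 fell and 0 rose by limma, and at an unadjusted p under 0.05, 0 were lower and 0 higher. Their median difference was 0.00, with 12 below and 12 above 0. In 6 of the 24 every Nkx2-1 high sample lay below every Nkx2-1 low sample, and in 1 every Nkx2-1 high sample lay above. Over all genes 13.5% lay below in that way. Nusap1, a spindle gene (0.30 ± 0.14), and Cdc20, an activator of the anaphase-promoting complex (0.23 ± 0.11), had the largest differences. The genes farthest below 0 were Bub1 (-0.19 ± 0.09) and Ttk (-0.17 ± 0.08), both without overlap. Mki67, the gene of the proliferation marker Ki-67, differed by -0.03 ± 0.07 with a 95% interval from -0.20 to 0.13, Top2a by -0.04 ± 0.11 and Cdk1 by -0.06 ± 0.07. These intervals reach the members' median of -0.18, and the difference between the lists was not tested.

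Of 17 measured p53 target genes, a class to which Cdkn1a belongs, 1 rose and 1 fell (5.88% each), with a median of -0.01. Over all genes 2.90% rose and 3.09% fell, so 1 call each way does not set the list apart. The anti-proliferative gene Btg2 was 1.87-fold higher (0.91 ± 0.09) and the kinase gene Plk3 1.34-fold lower (-0.42 ± 0.08, lost when Nkx2-1 high replicate 1 or Nkx2-1 low replicate 3 was left out, adjusted p up to 0.0534).

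**Figure D4:**
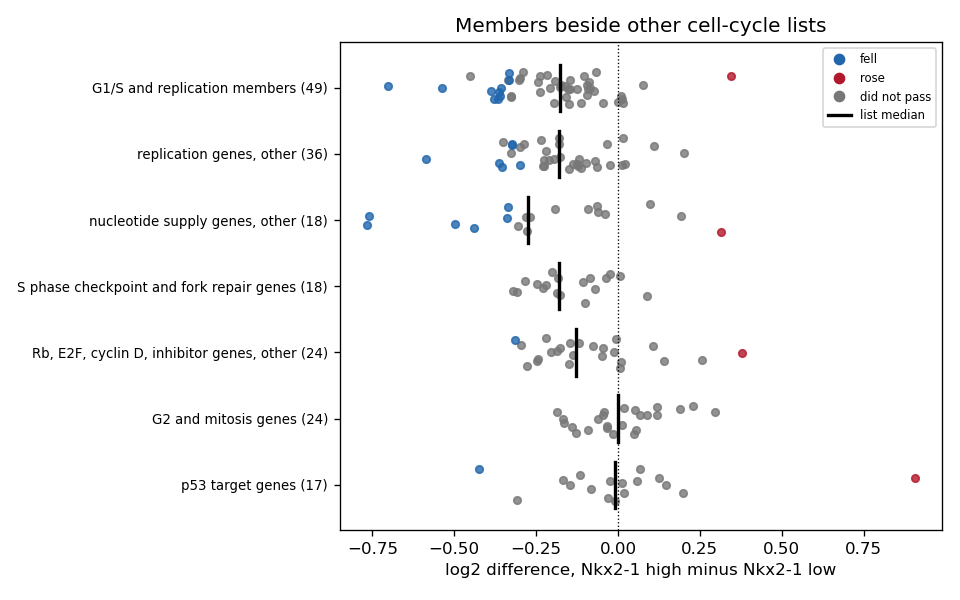
Log2 difference (x axis, Nkx2-1 high minus Nkx2-1 low) of every measured gene of the members and of 6 other cell-cycle lists, with the number of genes in parentheses and the list median as a black bar. Blue marks genes that fell, red those that rose and grey those that did not pass; the medians are -0.18 for the members and for the other replication genes, -0.27 for nucleotide supply and 0.00 for G2 and mitosis.

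Markers of other cell types differed between the fractions along with the replication genes. For the counts below, 3.09% of all genes fell and 2.90% rose. Of 9 mesenchyme markers 7 fell and 0 rose, and their summed linear signal ran from 2337 to 3193 in Nkx2-1 high and from 5508 to 6666 in Nkx2-1 low. Pdgfrb, with means of 9.68 in Nkx2-1 high and 9.64 in Nkx2-1 low, and Lum (-0.74 ± 0.22) did not pass. Of 8 neuron markers 6 fell and 0 rose, with sums from 278 to 383 in Nkx2-1 high and from 561 to 589 in Nkx2-1 low. Of 6 endothelial markers 3 rose (Tek, Flt4 and Eng) and 0 fell. The 6 summed to 254 to 321 in Nkx2-1 high and to 170 to 188 in Nkx2-1 low. Eng lost its call in 4 of 6 leave-one-out fits. Pecam1 (0.33 ± 0.10) and Kdr (-0.08 ± 0.09) did not pass, and Cdh5 was not above background. All mesenchyme and neuron markers were above background in at least 1 group. Epithelial markers summed to 201 to 260 in Nkx2-1 high and 223 to 258 in Nkx2-1 low, and 1 of 6 fell, Epcam, by 1.76-fold. By value 3 of the 6 lay below 0 and 3 above, and those above, Krt8, Krt18 and Krt19, did not pass. Of 4 blood markers 1 was above background, and Ptprc, Hbb-bh1 and Spi1 were not. The part of these cell types in the differences of the replication genes was not tested.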

How the data were processed

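Total RNA from 3 Nkx2-1 high and 3 Nkx2-1 low samples went through WT-Ovation Pico amplification before labelling for Affymetrix arrays, per the labels' protocols. The authors deposited 1 log2 value per probe set and array. RMA, which subtracts background, equalises arrays and summarises probes, is named in the submitters' processing notes, and the log2 scale was inferred from RMA and the range of the values. Its version is not given in the sources used here, nor is a genome build. Scan dates and slides were not used here, and the number of arrays limits the precision.

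Of 29011 rows, GEO's platform annotation gave 1 symbol to 21789, several to 1621 and none to 5601. All single-symbol rows but 91 matched RefSeq by Entrez ID, and 0 symbols were updated. Group was the only term of a limma fit (version 3.58.1, R 4.3.3, lmFit then eBayes), which covered all 19938 genes. Every adjusted p is from that test unless another setting is named, with ± for its standard error unless SD is given. An adjusted p given for left-out samples, median-centred arrays or the mean over rows is from the limma fit repeated with that setting. The test was checked on simulated data, with planted differences larger than those of most members that passed. The check does not cover differences as small as theirs. "Rose" and "fell" mark genes at adjusted p under 0.05 that were higher or lower in Nkx2-1 high.

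The members and gene lists were chosen with earlier results of these data known. All measured members are named. Values in all samples are given for members that passed, the 3 largest differences in each direction among the others, and key regulators. From other lists up to 6 genes that passed are named, or 2 where none did. Mki67, Top2a, Cdk1, Bub1 and Ttk lie outside that rule and were picked with their values in view. So were Sftpb, Foxe1, Foxa1, Foxa2 and the cell type markers named as not passing or not above background. The alternatives tried were other centring, normalization, filters, variance models, weights, rows per gene, thresholds and left-out samples. Plots used matplotlib 3.10.9.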

Additional observations from a re-analysis of the deposited data

How the results depend on the processing

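The number of genes called over the whole table was 1196, and 507 at an adjusted p threshold of 0.01. It ran from 624 to 1086 over the 6 fits that left out 1 sample. The number of members called was 11, and 2 at the threshold of 0.01 and 2 without both samples numbered 3. It ran from 2 to 6 over the fits that left out 1 sample. Those fits have fewer samples. Over median-centred arrays, cyclic loess, both filters on dim genes, trend and robust eBayes, array weights and the mean over rows, the number of members called ran from 9 to 14. The members' median difference of -0.18 ran from -0.21 to -0.15 over the fits that left out 1 sample, and the other alternatives that gave it lay in that range. Of the 11 called members, Ccne1 and Rrm2 passed under every alternative run, and the other 9 lost the call under at least 1. Of the 38 others, 10 changed sign under at least 1 alternative.

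The labels give both groups replicate numbers 1 to 3 and state no pairing. Deviations from the group means correlated at r = 0.18, -0.004 and 0.28 across genes for samples numbered 1, 2 and 3. By the rule that each must exceed 0.1 no pairing was taken, and not every sample correlated best with its own number. With 3 samples in each group, these correlations cannot exclude a pairing. With a replicate block 14 members and 1470 genes were called.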
